A study of Mus musculus with 8 samples.

Results

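The 9 genes described here encode the machinery that carries, stores, oxidizes and breaks down retinol (vitamin A) in the liver. They are *Rbp4*, *Lrat*, *Rdh7*, *Rdh16*, *Rdh10*, *Dhrs3*, *Aldh1a1*, *Cyp26a1* and *Bco1*. They were taken by name, as the rows of the raw count table whose Ensembl identifiers carry these symbols in the GRCm38 annotation, and make up 9 of its 18095 genes. The libraries came from livers of 12-week-old male mice on a high fat diet (HFD), 4 wild type (HFD WT) and 4 homozygous for a deletion of *Inpp4b* (HFD Inpp4b-/-), a phosphoinositide phosphatase. By the study's methods the dams of both groups already ate the HFD from before mating until weaning, so the exposure of every animal began before birth. The knockout is carried in every cell, each library is 1 mouse, and the strain is given as C57BL/6 in the labels and as FVB in the methods. Mice on the low fat diet were not sequenced in these libraries.

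Retinol reaches the liver as retinyl ester in chylomicron remnants and leaves it bound to the secreted carrier RBP4. Within the liver, hepatocytes hand retinol to stellate cells, where LRAT esterifies it into lipid droplets, the main vitamin A store of the body. Retinol is oxidized reversibly to retinal and then irreversibly to retinoic acid, a ligand of nuclear receptors, which CYP26 enzymes degrade, and in liver retinoic acid is known to induce *Cyp26a1*, *Lrat* and *Dhrs3*.

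Library totals were 32738435 to 36662531 counts in HFD Inpp4b-/- and 25893430 to 31427831 in HFD WT. The targeted gene did not separate the genotypes. *Inpp4b* (chromosome 8, 81342556 to 82127914) had 33, 10, 9 and 14 counts in the libraries labelled HFD Inpp4b-/- and 6, 20, 5 and 8 in HFD WT, too few for the fit across genes, with 0.465 ± 0.305 and 0.332 ± 0.207 CPM (SD, n = 4 each, two-sided exact permutation test, p = 0.486). Directions below therefore follow the labels. Levels are given in CPM, counts scaled to a common library total with TMM factors.

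Across the 9 genes, 8 had a positive log2 fold change in the libraries labelled HFD Inpp4b-/-, and *Bco1* a negative one. The median was 0.17 on the log2 scale, against 0.00275 over the 14866 tested genes, of which 50.4% were above 0. The 4 genes with the highest ratios of mean CPM to HFD WT were *Cyp26a1* (2.54 times), *Lrat* (1.66 times), *Rdh16* (1.55 times) and *Dhrs3* (1.26 times). None of the 9 was called by edgeR's quasi-likelihood test at an adjusted p under 0.10 with a fold over 1.3, against 1.17% of all tested genes (174 of 14866) in either direction and 0.552% called higher. At an unadjusted p under 0.05, the same 4 genes passed, all higher, against 6.8% of all tested genes in that direction and 13.9% in either. DESeq2 called 2 of the 9, *Rdh16* and *Lrat*, against 4.04% of the 17016 genes with an adjusted p (688 genes). In 4 of the 9, *Lrat*, *Rdh7*, *Rdh16* and *Cyp26a1*, every library labelled HFD Inpp4b-/- lay above every HFD WT library, against 4.63% of tested genes, or 8.72% when non-overlap in either direction is counted. The genes were picked with earlier results of these data known, so these shares describe the list and test nothing about it.

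**Figure D1:**
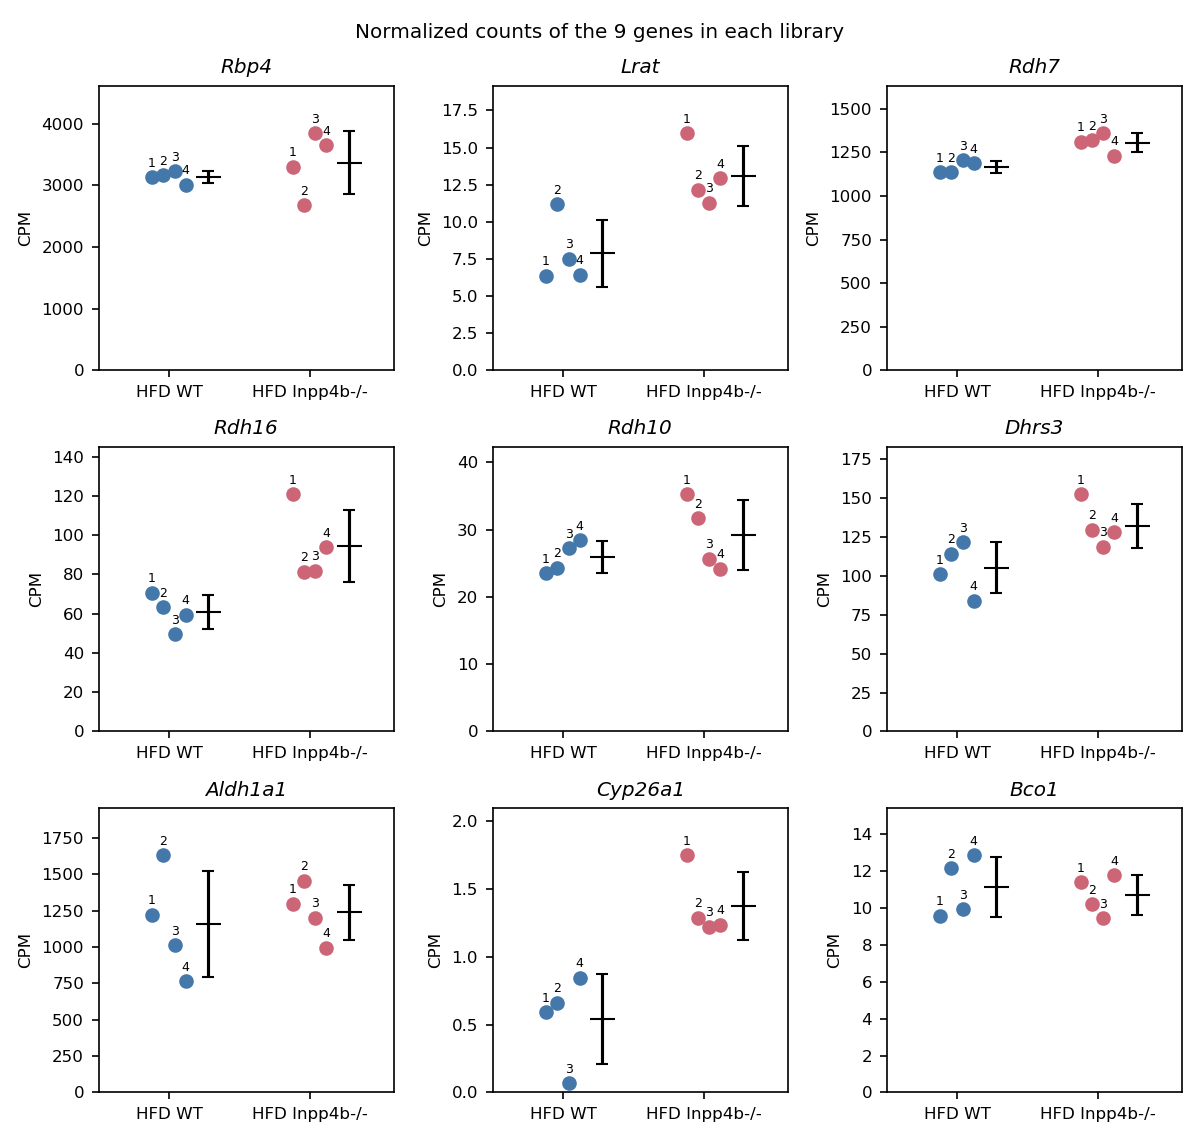
Normalized counts (CPM) of the 9 genes, 1 point per library with its replicate number, and the mean with its SD beside each group (n = 4), on axes that start at 0. The groups do not overlap for *Lrat*, *Rdh7*, *Rdh16* and *Cyp26a1*, and overlap for the other 5 genes.

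The levels of the 9 genes span more than 3 orders of magnitude. Per kilobase of exon, the mean over the 8 libraries was 2421 CPM per kb for *Rbp4* (1993 to 2861), 736 for *Rdh7* (676 to 809) and 242 for *Aldh1a1* (155 to 330.0). It was 40.6 CPM per kb for *Dhrs3* (28.7 to 52.0), 12.5 for *Rdh16* (7.98 to 19.4) and 6.62 for *Rdh10* (5.64 to 8.47). At the bottom were *Bco1* with 4.30 CPM per kb (3.72 to 5.06), *Lrat* with 1.96 (1.19 to 2.98) and *Cyp26a1* with 0.483 (0.0340 to 0.881). The ranges of neighbours in this order did not overlap, apart from those of *Rdh16* and *Rdh10*, and within each of the 8 libraries the order was the same. The length is the union of all annotated exons of a gene, 6217 bases for *Rdh16*, so genes with long, little used exons are set too low on this scale.

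**Figure D2:**
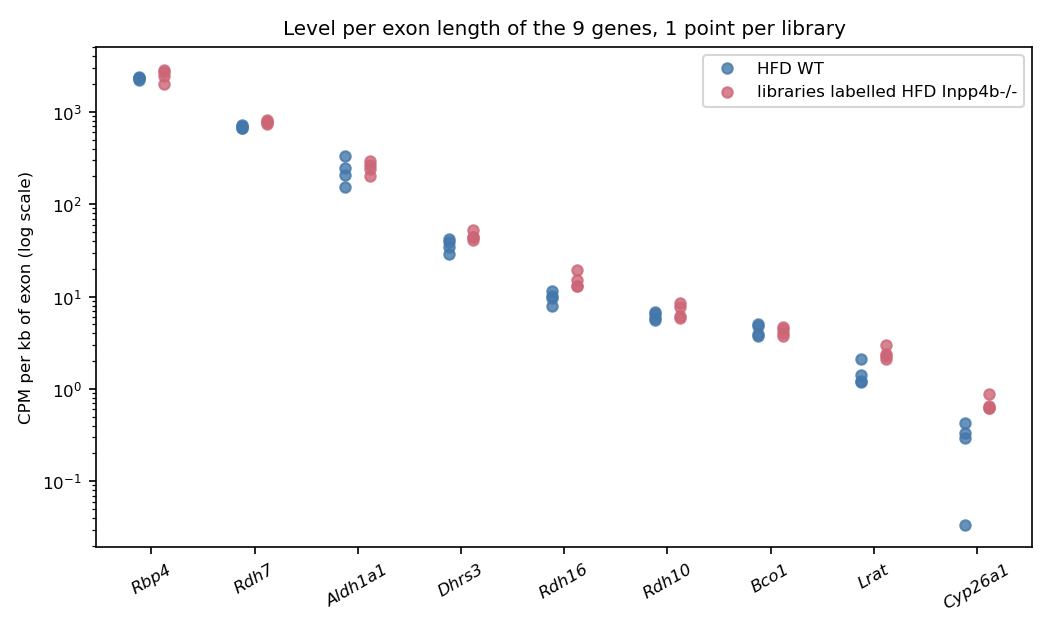
Level of each of the 9 genes in CPM per kb of exon on a log axis, ordered by the mean over the 8 libraries, with HFD WT in blue and the libraries labelled HFD Inpp4b-/- in red. *Rbp4* is highest at 2421 CPM per kb, *Cyp26a1* lowest at 0.483, and *Lrat*, the storage enzyme, is the next lowest at 1.96.

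*Rbp4* (ENSMUSG00000024990, chromosome 19, 38116629 to 38125281, minus strand) encodes the plasma carrier that takes retinol out of the liver. Its levels in replicates 1 to 4 were 3304, 2677, 3843 and 3649 CPM in the libraries labelled HFD Inpp4b-/- and 3134, 3164, 3233 and 3009 CPM in HFD WT. The lowest and the highest library both carried the Inpp4b-/- label, and the HFD WT values lay between them. The means were 3368 ± 512 and 3135 ± 93.7 CPM (SD, n = 4), coefficients of variation of 15.2% and 2.99%. Their log2 fold change was 0.10 (95% interval -0.17 to 0.38; edgeR, adjusted p = 0.753).

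RBP4 circulates bound to transthyretin, whose gene *Ttr* was the most abundant carrier gene at 5431 CPM per kb. *Ttr* had 7293, 6793, 7762 and 6713 CPM in the libraries labelled HFD Inpp4b-/- and 6028, 4942, 5893 and 6106 CPM in HFD WT. These groups did not overlap, with a difference of 0.31 ± 0.11 on the log2 scale (SE; edgeR, adjusted p = 0.266). The next carrier and uptake gene by level, the remnant receptor *Lrp1*, had a log2 fold change of -0.09 (adjusted p = 0.804 by edgeR). Of the 7 tested carrier and uptake genes, *Rbp4* included, none was called, 4 were above 0 and 3 below.

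*Lrat* (ENSMUSG00000028003, chromosome 3, 82892579 to 82903973, minus strand) encodes lecithin retinol acyltransferase, which makes the stored retinyl esters. It had 16.0, 12.2, 11.3 and 12.9 CPM in replicates 1 to 4 labelled HFD Inpp4b-/- (351 to 575 counts) and 6.38, 11.2, 7.51 and 6.45 CPM in HFD WT (168 to 355 counts). All 4 libraries labelled HFD Inpp4b-/- were higher than all HFD WT libraries, but HFD WT replicate 2, at 11.17 CPM, came within reach of the lowest of them, at 11.29 CPM. The means were 13.1 ± 2.02 and 7.88 ± 2.26 CPM (SD, n = 4). This was a log2 fold change of 0.73 (95% interval 0.28 to 1.18), with an adjusted p of 0.164 by edgeR and 0.0311 by DESeq2. The two-sided exact permutation test gave p = 0.0286, the smallest that the 70 arrangements of 4 against 4 allow. Without HFD WT replicate 2 the log2 fold change was 0.94 and edgeR's adjusted p 0.0377.

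*Lrat* is also the defining gene of hepatic stellate cells, and in bulk liver more of these cells and more *Lrat* RNA per cell cannot be told apart. The other 12 stellate cell markers summed to 305 to 375 CPM in the libraries labelled HFD Inpp4b-/- and 270.2 to 360.3 CPM in HFD WT, ranges that overlap. None of these 12 was called, 6 were above 0 and 6 below, with a median log2 fold change of 0.05. *Ecm1*, the most abundant of them at 36.8 CPM per kb and named for its level, had a log2 fold change of 0.37 (edgeR, adjusted p = 0.189), with no overlap between the groups.

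**Figure D3:**
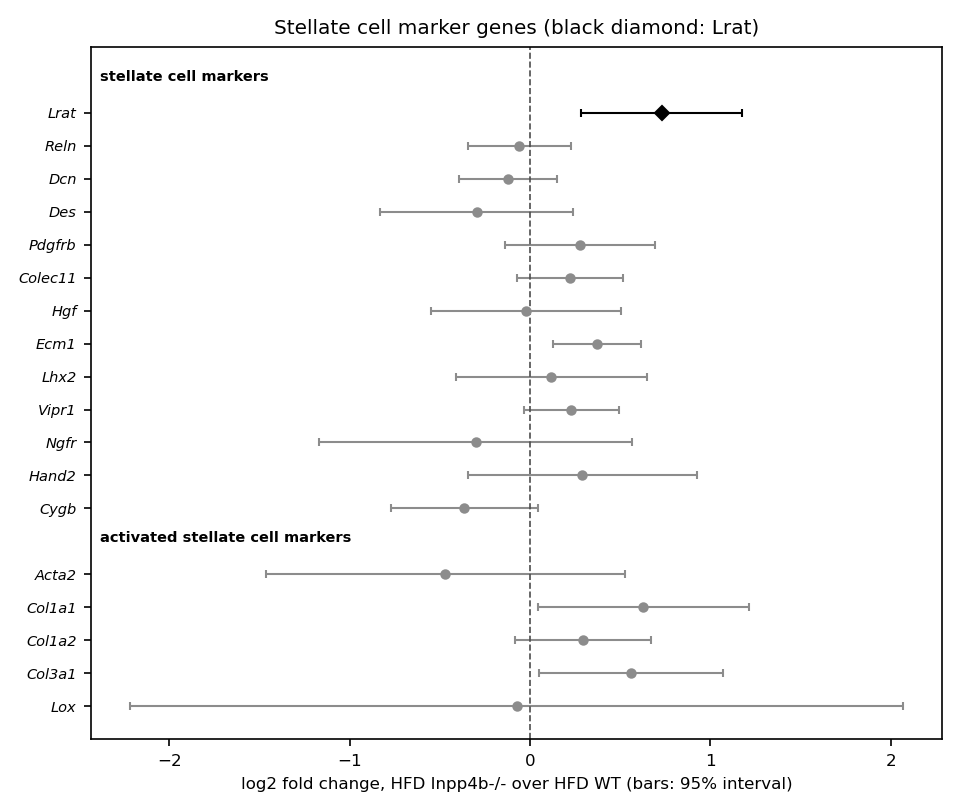
Log2 fold change of stellate cell markers and of markers of activated stellate cells, libraries labelled HFD Inpp4b-/- over HFD WT, with 95% intervals. *Lrat* (black diamond) stands at 0.73, and the other 12 stellate markers lie on both sides of 0 around a median of 0.05.

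Among the 13 tested genes of retinyl ester synthesis and hydrolysis, 10 were above 0 and 3 below, none called by edgeR and 1, *Lrat*, by DESeq2. The most abundant were the carboxylesterase *Ces1d* (log2 fold change 0.15, adjusted p = 0.828 by edgeR) and *Dgat2*, an acyltransferase of triglyceride synthesis that can also esterify retinol (-0.05, 0.897). *Lipa*, the lysosomal acid lipase that hydrolyses esters taken up in remnants, was picked out after its values were seen. It had 179, 139, 153 and 140.0 CPM in the libraries labelled HFD Inpp4b-/- and 104.5, 129, 115 and 133 CPM in HFD WT, without overlap (log2 fold change 0.35; edgeR, adjusted p = 0.219).

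*Rdh16* and *Rdh7* belong to a cluster of short-chain dehydrogenase genes on chromosome 10 whose products act on retinol and on steroids. *Rdh16* (ENSMUSG00000069456, 127801152 to 127846565, plus strand) had 121, 81.4, 81.9 and 93.8 CPM in replicates 1 to 4 labelled HFD Inpp4b-/- and 70.8, 63.3, 49.6 and 59.4 CPM in HFD WT. The groups did not overlap, and the libraries labelled HFD Inpp4b-/- were spread more widely because replicate 1 stood above the other 3. The means were 94.5 ± 18.5 and 60.8 ± 8.81 CPM (SD, n = 4). The log2 fold change was 0.64 (95% interval 0.30 to 0.97), with an adjusted p of 0.121 by edgeR and 0.0134 by DESeq2, and an exact permutation p of 0.0286. Without replicate 1 labelled HFD Inpp4b-/- it was 0.50 (edgeR, adjusted p = 0.238).

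*Rdh7* (ENSMUSG00000040134, 127884028 to 127888817, minus strand) lies 37463 bases from *Rdh16* and had far higher counts. It had 1311, 1318, 1358 and 1231 CPM in the libraries labelled HFD Inpp4b-/- and 1135, 1134, 1206 and 1187 CPM in HFD WT. Both groups were tight, with coefficients of variation of 4.07% and 3.16%, and did not overlap. Their log2 fold change was 0.16 (95% interval -0.02 to 0.35; edgeR, adjusted p = 0.416), a ratio of means of 1.12, below the fold of 1.3 required for a call. The exact permutation test gave p = 0.0286.

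The copies in this cluster share sequence. Of all 150-base windows in the exons of *Rdh16*, 4.93% also occur in *Rdh18-ps*, *Rdh16f1* or *Rdh9*, and for *Rdh7* 0.981% also occur in *Rdh18-ps*. The exons of *Rdh18-ps* overlap those of *Rdh16* by 381 bases on the same strand. Windows shared by this pair can therefore be the same bases annotated in both genes, and not copies. Among 50-base windows the shared part was 14.0% for *Rdh16*, 12.9% for *Rdh7*, 3.06% for *Aldh1a1* and 1.42% for *Bco1*. Counts of these genes are uncertain where reads match such stretches, and for the 7 genes besides *Rdh16* and *Rdh7* no 150-base window was shared. *Rdh9* shares 61.2% of its windows and had a log2 fold change of -0.24 (edgeR, adjusted p = 0.603).

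*Rdh10* (ENSMUSG00000025921, chromosome 1, 16105774 to 16133734, plus strand) encodes the microsomal retinol dehydrogenase that makes retinal for retinoic acid synthesis in the embryo. Its levels were 35.2, 31.7, 25.7 and 24.2 CPM in the libraries labelled HFD Inpp4b-/- and 23.5, 24.3, 27.2 and 28.4 CPM in HFD WT. Only replicates 1 and 2 labelled HFD Inpp4b-/- exceeded the HFD WT range. *Rdh10* had a log2 fold change of 0.17 (95% interval -0.12 to 0.47; edgeR, adjusted p = 0.598).

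*Dhrs3* (ENSMUSG00000066026, chromosome 4, 144892827 to 144928209, plus strand) encodes the reductase that works in the opposite direction, from retinal to retinol, and forms a complex with RDH10. It had 152, 129.6, 119 and 128 CPM in the libraries labelled HFD Inpp4b-/- and 101, 114, 122 and 84.0 CPM in HFD WT. The groups overlapped at a single point, where HFD WT replicate 3 exceeded replicate 3 labelled HFD Inpp4b-/-. The means were 132 ± 14.2 and 105 ± 16.5 CPM (SD, n = 4), a log2 fold change of 0.33 (95% interval 0.05 to 0.61; edgeR, adjusted p = 0.290; DESeq2, adjusted p = 0.258). The exact permutation test gave p = 0.0571.

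Of the 15 tested genes of retinol oxidation and retinal reduction, 12 were above 0 and 3 below, with a median log2 fold change of 0.16 and none called by edgeR. These 15 include *Rdh7*, *Rdh16*, *Rdh10* and *Dhrs3*. Their summed level was 3738 to 3931 CPM in the libraries labelled HFD Inpp4b-/- and 3184 to 3526 CPM in HFD WT, ranges that did not overlap. *Rdh7* (means of 1305 and 1166 CPM) and *Adh1* (1336 and 1194 CPM) were the largest parts of it. With the genes described here left out, 11 were tested, 8 above 0 and 3 below, none called. The sums of these 11 were 2177 to 2454 CPM and 1853 to 2167 CPM. *Adh1*, the abundant cytosolic alcohol dehydrogenase of liver, had a log2 fold change of 0.16 (edgeR, adjusted p = 0.598). *Dhrs4*, a peroxisomal retinal reductase, had one of 0.32 (edgeR, adjusted p = 0.361).

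*Aldh1a1* (ENSMUSG00000053279, chromosome 19, 20492715 to 20643465, plus strand) encodes the main cytosolic retinal dehydrogenase of liver, which makes retinoic acid. Its levels were 1298, 1454, 1200 and 995 CPM in the libraries labelled HFD Inpp4b-/- and 1222, 1629, 1011 and 764 CPM in HFD WT. Both the highest and the lowest library were HFD WT, whose coefficient of variation was 31.7%. The log2 fold change was 0.10 with a wide interval, -0.38 to 0.58 (edgeR, adjusted p = 0.877), and was -0.06 when HFD WT replicate 4 was left out. The closest enzymes by level, *Aox3* and *Aldh1a7*, both had log2 fold changes of 0.04 (edgeR, adjusted p = 0.945 and 0.943). *Aldh1a2*, which makes retinoic acid in many other tissues, had no row in the count table used here.

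*Cyp26a1* (ENSMUSG00000024987, chromosome 19, 37697798 to 37701536, plus strand) encodes the cytochrome P450 that clears retinoic acid, and its transcription is a standard readout of retinoic acid in liver. Retinoic acid receptors bind direct repeats of a half-site, so the RefSeq promoters (250 bases before to 50 after each start, GRCm38.p6) were searched for pairs of half-sites in the same orientation, 1, 2 or 5 bases apart, on both strands. A half-site was the consensus AGGTCA, its variant GGGTCA, the variant AGTTCA found in known elements, or the related hexamer GGTTCA, and the 2 of a pair could be different ones. Of the 9 genes, 8 had at least 1 promoter in the table, 13 promoters in all, and 2 of these promoters held such a pair. Over all 32851 promoters, such a pair was found in 0.222%, 0.268% and 0.0974% at spacers of 1, 2 and 5 bases. The pair in *Cyp26a1* has a spacer of 5 bases, found in 0.0974% of 32851 promoters. Both of its half-sites are AGTTCA, a variant searched for because known elements hold it. The search was thus not blind to such a pair, and the share tests nothing. The pair lies 32 to 16 bases before the start (chr19:37697776-37697792) and reads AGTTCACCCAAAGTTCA on the opposite strand. The 250 bases before the start are printed for the position of this repeat, in capitals, beside the start of the gene whose levels differed most in ratio (chr19:37697558-37697807, plus strand). Their last 10 bases lie within the gene as GENCODE draws it.
*Cyp26a1* promoter: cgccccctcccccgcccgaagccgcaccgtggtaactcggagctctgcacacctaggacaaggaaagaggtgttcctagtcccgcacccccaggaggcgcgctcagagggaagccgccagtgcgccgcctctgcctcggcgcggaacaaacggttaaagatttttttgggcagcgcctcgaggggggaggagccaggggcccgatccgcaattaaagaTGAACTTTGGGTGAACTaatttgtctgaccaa

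A pair with the same spacer was found in the promoter of *Rarb*, the retinoic acid receptor gene known for such an element (chr14:16575513-16575529, 53 to 37 bases before the start). Both of its hexamers, GGTTCA and AGTTCA, are among the half-sites searched for, so finding this known element was set by that choice. The 2 repeats are shown together because they share the spacer, each on the strand where its half-sites read as above.
*Cyp26a1* repeat: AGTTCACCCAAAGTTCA
*Rarb* repeat: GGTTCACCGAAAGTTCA

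*Cyp26a1* had 1.75, 1.29, 1.22 and 1.24 CPM in replicates 1 to 4 labelled HFD Inpp4b-/- (63, 49, 38 and 44 counts). In HFD WT it had 0.590, 0.661, 0.0673 and 0.844 CPM (16, 21, 2 and 22 counts). Every library labelled HFD Inpp4b-/- was above every HFD WT library, and HFD WT replicate 3 was far below the rest of its group. The means were 1.37 ± 0.251 and 0.541 ± 0.333 CPM (SD, n = 4). The log2 fold change was 1.35, with the widest 95% interval of the 9 genes, 0.13 to 2.56, and an adjusted p of 0.309 by edgeR and 0.148 by DESeq2. Without HFD WT replicate 3 it was 0.97 (edgeR, adjusted p = 0.295). The exact permutation test gave p = 0.0286. *Cyp26b1*, the related enzyme tested beside it, had 3.99 to 8.01 CPM and 2.29 to 6.52 CPM, a log2 fold change of 0.61 (95% interval -0.20 to 1.42; edgeR, adjusted p = 0.490).

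*Bco1* (ENSMUSG00000031845, chromosome 8, 117095854 to 117133720, plus strand) encodes the dioxygenase that cleaves beta-carotene into retinal. It shares its chromosome with *Inpp4b*, at a distance of 34967940 bases. Its promoter held the other pair, with a spacer of 1 base, found in 0.222% of promoters, 56 to 44 bases before the start (chr8:117095809-117095821). Repeats with this spacer are known as sites of RXR heterodimers with PPAR, and the sequence is printed to show the repeat in capitals on the gene's strand (chr8:117095615-117095864, plus strand). Its last 11 bases lie within the GENCODE gene.
*Bco1* promoter: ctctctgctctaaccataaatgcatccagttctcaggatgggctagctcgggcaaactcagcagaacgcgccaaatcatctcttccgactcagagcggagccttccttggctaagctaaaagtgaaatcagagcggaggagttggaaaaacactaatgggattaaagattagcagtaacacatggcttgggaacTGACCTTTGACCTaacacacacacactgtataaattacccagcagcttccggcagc

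*Bco1* had 11.4, 10.2, 9.46 and 11.8 CPM in the libraries labelled HFD Inpp4b-/- and 9.58, 12.2, 9.93 and 12.9 CPM in HFD WT. The groups were interleaved, with means of 10.7 ± 1.07 and 11.1 ± 1.63 CPM (SD, n = 4). *Bco1* had a log2 fold change of -0.06 (95% interval -0.36 to 0.25; edgeR, adjusted p = 0.894). *Bco2*, the mitochondrial enzyme that cleaves carotenoids at another bond, had a log2 fold change of 0.19 (edgeR, adjusted p = 0.674).

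The other genes of the pathway were taken from lists by role. Of 54 such genes, 44 were in the count table and 42 were tested. None was called by edgeR or by DESeq2, 28 were above 0 and 14 below, and the median log2 fold change was 0.11. By edgeR 4 had an unadjusted p under 0.05, all higher, against 6.8% of all tested genes in that direction and 13.9% in either. The groups did not overlap for 2 of the 42, both higher, against 4.63% of all tested genes. Of the 7 tested receptor genes, 3 were above 0 and 4 below. The most abundant, *Rxra* (log2 fold change -0.12; edgeR, adjusted p = 0.621) and *Rxrb* (-0.02, 0.937), were both below. Of 8 tested genes known to be induced by retinoic acid in various tissues and not among the 9 described here, 3 were above 0 and 5 below, none called by edgeR or DESeq2 and none with an unadjusted p under 0.05, with a median of -0.12. They were led in level by *Pck1* (log2 fold change -0.53; edgeR, adjusted p = 0.534) and *Rarres1* (-0.25, 0.663), and included *Rarb* at 0.48 (95% interval -0.96 to 1.92).

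**Figure D4:**
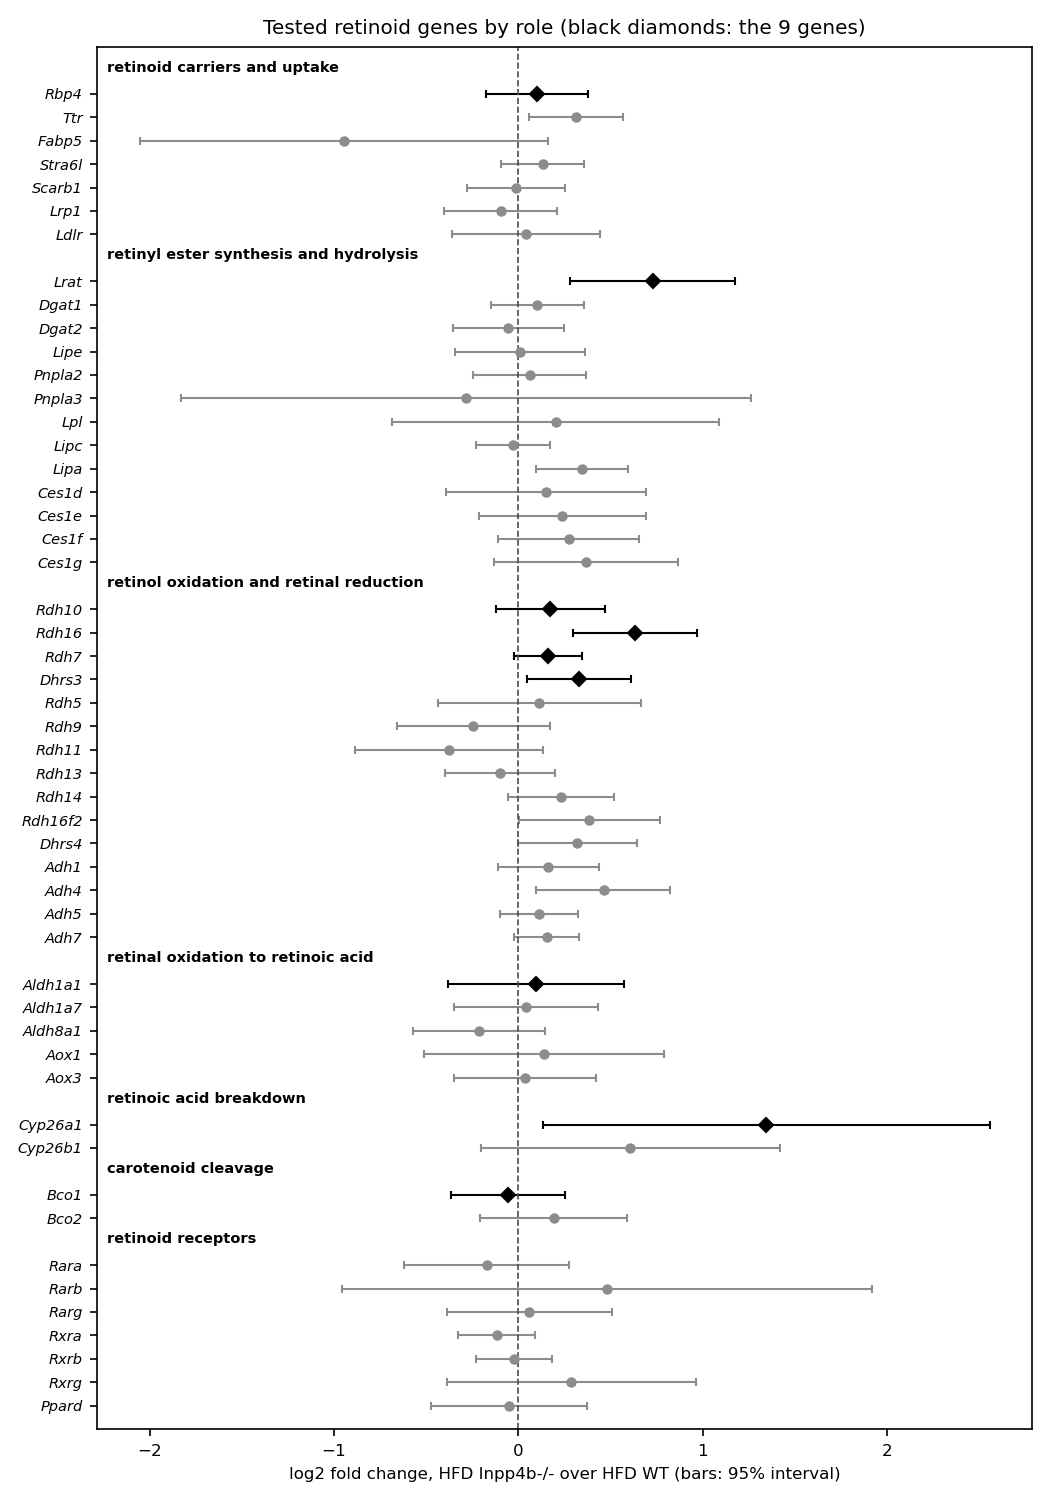
Log2 fold change, libraries labelled HFD Inpp4b-/- over HFD WT, of the tested retinoid genes grouped by role, with 95% intervals. Black diamonds mark the 9 genes, of which *Cyp26a1* (1.35), *Lrat* (0.73), *Rdh16* (0.64) and *Dhrs3* (0.33) have intervals above 0.

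The 9 genes varied among mice in several patterns. Replicate 1 labelled HFD Inpp4b-/- was the highest of all 8 libraries for *Lrat*, *Rdh16*, *Rdh10*, *Dhrs3* and *Cyp26a1*. Without it, the log2 fold changes of *Lrat*, *Rdh16*, *Dhrs3* and *Cyp26a1* were 0.62, 0.50, 0.25 and 1.21, and that of *Rdh10* was 0.07 in place of 0.17. Over the 8 libraries 30 of the 36 gene pairs had a positive correlation of log2 CPM, and 20 after the mean of each genotype was subtracted. *Lrat* and *Dhrs3* had the highest (Pearson's r = 0.853, exact permutation p = 0.00362; Spearman's rho = 0.881, exact permutation p = 0.00724). It was 0.683 after genotype means were subtracted and 0.672 without the 2 libraries farthest from the median of *Lrat*. For *Rdh16* and *Cyp26a1* r was 0.824 (exact permutation p = 0.00871; rho = 0.833, exact permutation p = 0.0154), 0.616 within genotypes and 0.742 without the 2 farthest libraries. After Benjamini-Hochberg adjustment over the 36 pairs these were 0.130 and 0.157 for r and 0.185 each for rho, and no pair passed 0.05. The pairings ran over all 8 libraries, so a difference between the groups enters these p-values, and values within genotypes were not tested. Of the 3 pairs with an unadjusted p of r under 0.05, the other was *Lrat* and *Rdh16* (r = 0.795, exact permutation p = 0.0175). Its r was 0.356 within genotypes and 0.954 without the 2 farthest libraries. *Lrat* and *Cyp26a1* had rho = 0.857 and r = 0.612, which was 0.102 within genotypes and 0.934 without these 2 libraries.

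**Figure D5:**
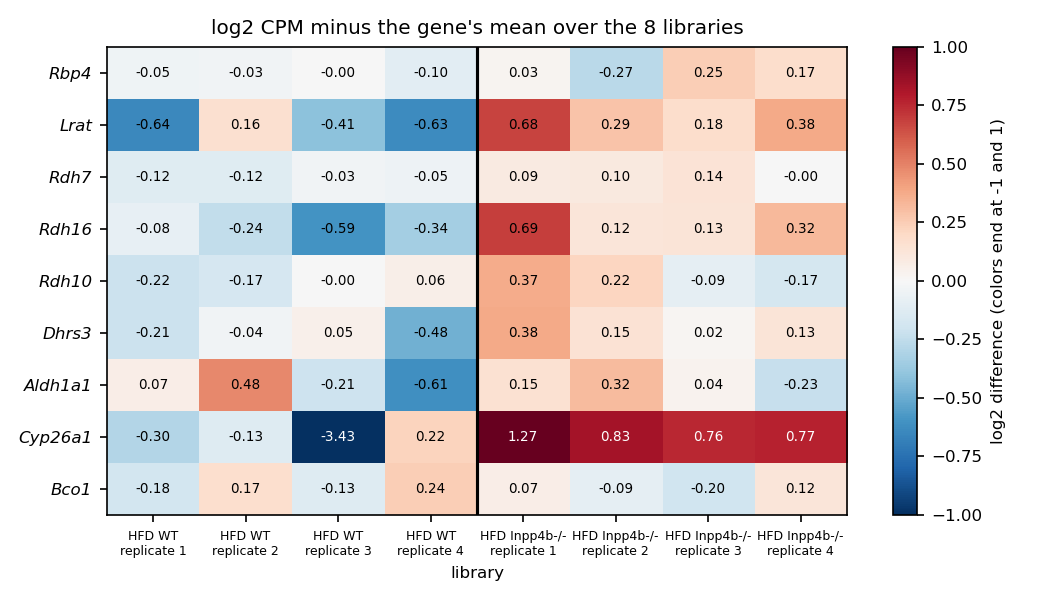
Log2 CPM of each of the 9 genes minus its mean over the 8 libraries, HFD WT left of the line and libraries labelled HFD Inpp4b-/- right of it. The row of *Cyp26a1* runs from -3.43 in HFD WT replicate 3 to 1.27 in replicate 1 labelled HFD Inpp4b-/-, whereas *Rdh7* stays within -0.12 to 0.14.

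For each gene, the protein-coding gene outside the list with the closest profile over the 8 libraries was found among 12631 genes by Pearson's r of log2 CPM. With so many genes and 8 libraries a high r is reached in every case, and libraries share depth and composition, so these are descriptions. *Lrat* was closest to *Gckr*, the glucokinase regulatory protein of hepatocytes (r = 0.995), a higher value than for any other of the 9. *Rdh16* was closest to *Col14a1*, which encodes a fibril-associated collagen (r = 0.947). *Col14a1* had a log2 fold change of 0.48 and was the only one of these 9 partners with an adjusted p under 0.10 (edgeR, adjusted p = 0.0804). *Cyp26a1* was closest to *P2ry1*, a nucleotide receptor gene (r = 0.983), and *Bco1* to *Fdps*, a gene of the mevalonate pathway (r = 0.937). The others were *Nhlrc1* for *Rbp4* (0.968), *Cmtm8* for *Dhrs3* (0.980), *3830406C13Rik* for *Rdh7* (0.964), *Fam149a* for *Rdh10* (0.983) and *Chrdl1* for *Aldh1a1* (0.965).

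Markers of other liver cells were read beside these values. Hepatocyte markers were abundant, led by *Alb* at 25290 CPM per kb, with 2 of 7 above 0 and 5 below. Their sums were 81710 to 102000 CPM in the libraries labelled HFD Inpp4b-/- and 81070 to 86380 CPM in HFD WT. Of the 7, none was called and 2, *Alb* and *Ttr*, were higher without overlap, against 4.63% of tested genes. *Alb* had 56190 to 70720 CPM and 52490 to 55860 CPM (edgeR, adjusted p = 0.474). All 6 Kupffer cell markers were above 0 with none called (median 0.40), and their sums were 83.7 to 162 CPM and 43.1 to 120.0 CPM. Of 5 tested markers of activated stellate cells 3 were above 0 and 2 below (median 0.295), with sums of 42.7 to 87.5 CPM and 42.9 to 55.4 CPM. None of these was called, and 2 had an unadjusted p under 0.05 by edgeR, both higher, against 6.8% of tested genes in that direction. For both of them the groups overlapped. Of 8 pericentral hepatocyte markers 1 was above 0 and 7 below, with none called and sums of 7752 to 8786 CPM and 6434 to 10880 CPM. Of 6 endothelial cell markers 2 and of 8 periportal hepatocyte markers 4 were above 0, with none called. Of 5 cholangiocyte markers 4 were above 0, with sums of 29.7 to 40.6 CPM and 23.7 to 31.6 CPM, none called by edgeR and 1 by DESeq2, *Spp1* (log2 fold change 0.54; DESeq2, adjusted p = 0.0360), without overlap between the groups. Of 5 blood markers 1 was called lower, the globin gene *Hba-a2* (log2 fold change -2.92; edgeR, adjusted p = 0.0570), also without overlap. It has a near-identical copy, *Hba-a1*, between which reads can be split, and the blood marker sums of 208 to 346 CPM and 114 to 431 CPM overlapped. Both genes were named after their values were seen. The part of these markers in the values of the 9 genes was not tested. The 5 adipocyte markers had no row in the count table used here.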

How the data were processed

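RNA was extracted from livers of 4 HFD WT and 4 HFD Inpp4b-/- males. Libraries were prepared with the NEBNext Ultra kit, after rRNA removal with Ribo-Zero according to the labels. The authors used HISAT2 for mapping to GRCm38 and HTSeq for counting, and deposited raw counts, keeping genes with at least 1 count in all libraries of 1 genotype. The authors also deposited a normalized signal, each count divided by a library factor, which was not tested. Annotation release and strand setting are not given in the sources used here, so overlapping genes are uncertain. STAR counts were not analysed here.

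The quasi-likelihood test of edgeR 4.0.16 was run in R 4.3.3 on genes kept by filterByExpr, with TMM scaling and genotype as the only term. A call required a fold over 1.3 and a p, adjusted by Benjamini-Hochberg over 14866 genes, under 0.10. All 9 genes passed the filter. DESeq2 1.42.0, other normalizations, filters and thresholds, a replicate block and leaving out libraries were alternatives, and the fit was tested on simulated data. Standard errors and 95% intervals follow from the edgeR test and its degrees of freedom. Exact permutation tests of group differences were two-sided on log2 CPM with 0.1 CPM added (scipy 1.17.1). Those of correlations were two-sided over the 40320 pairings of the 8 libraries, on log2 CPM with a prior count of 2. Symbols, coordinates and exon lengths came from GENCODE M21 and promoters from RefSeq.

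The 9 genes and the lists were chosen with earlier results of these data known. Named were the 9 genes, in each role list the called genes and the 2 with the highest level per length, the closest gene to each of the 9, and *Inpp4b*. Some genes of these lists are not reported here. Others were named after their values were seen. Totals per library limit the precision of genes as low as *Cyp26a1*. The p-values of group comparisons set the difference between the groups against the spread between mice.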

Additional observations from a re-analysis of the deposited data

Results flagged for a closer look

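The search covered 58 genes, those of retinoid metabolism, its targets and *Inpp4b*. In their 116 groups of 4 libraries, 6 groups held a library far from the other 3, where chance gives about 1 in 20, or 5.8. Among the 9 genes it was *Cyp26a1*, with 1.75 CPM in replicate 1 labelled HFD Inpp4b-/- against 1.22 to 1.29 CPM in the other 3.

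In HFD WT replicate 4, *Lpl* (lipoprotein lipase) had 14.7 CPM against 3.97 to 5.31, the immediate early gene *Egr1* 32.4 CPM against 3.06 to 5.79, and *Rdh14* 18.7 CPM against 26.0 to 26.8. *Rdh9* had 11.7 CPM in HFD WT replicate 1 against 13.1 to 13.3. *Dhrs4* had 175 CPM in replicate 4 labelled HFD Inpp4b-/- against 231 to 236.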

How the results depend on the processing

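None of the 9 genes was called by edgeR with other size factors, upper quartile scaling, other filters, an adjusted p under 0.05, no fold threshold or the replicate block. DESeq2 called 2, *Lrat* (log2 fold change 0.72) and *Rdh16* (0.63), and so 1 of the genes induced by retinoic acid. Leaving out 1 library gave 0 to 1 called of the 9 and 0 to 1 of the induced genes (*Lrat*, without HFD WT replicate 2), and 0 to 1 of the wider list (*Adh4*, without replicate 4 labelled HFD Inpp4b-/-). Over these omissions the log2 fold change was 0.62 to 0.94 for *Lrat*, -0.0574 to 0.298 for *Aldh1a1* (reversed without HFD WT replicate 4) and -0.12 to 0.0203 for *Bco1* (reversed, at 0.000307, without replicate 3 labelled HFD Inpp4b-/- and, at 0.0203, without HFD WT replicate 4), and the cause was not tested. The signs of the other 7 genes held under each alternative run.

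Over all genes, the 174 calls became 688 by DESeq2, 71 at an adjusted p under 0.05, 26 with the replicate block, and 53 to 345 when 1 library was left out (53 without replicate 2 labelled HFD Inpp4b-/-, 345 without HFD WT replicate 2). The correlations of same-numbered deviations were -0.17 to -0.01, against -0.0339 to 0.139 for other pairs. These values gave no sign that replicate numbers pair the mice, but with 4 mice a group they cannot settle it. With the block *Rdh16* had a log2 fold change of 0.63 (edgeR, adjusted p = 0.151) and *Lrat* 0.76 (0.385). *Cyp26a1* was not tested where at least 10 counts in every library were required, having 2 in HFD WT replicate 3. As the 9 genes passed the filter, the alternatives planned for genes below it gave no value. With 4 mice a group, the exact permutation test cannot go below 0.0286, and counts of 2 to 63 limit *Cyp26a1*.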
